A study of Homo sapiens with 2 samples.

Results

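The 48 genes described here encode the WNT ligands, the Frizzled (FZD) receptors that bind them, the secreted proteins that block or raise the signal, and nuclear or target genes of the pathway. They were chosen by name rather than by a measured value, though with earlier results of these data known, out of 20056 protein-coding genes of the RefSeq table (assembly GRCh38.p14). There were 19 WNT ligands, 9 secreted antagonists (SFRP1, SFRP2, SFRP4, SFRP5, FRZB and DKK1 to DKK4), 4 R-spondins (RSPO1 to RSPO4), 6 nuclear or target genes (AXIN2, LEF1, TCF7, TCF7L1, LGR5 and NKD1) and 10 FZD receptors. All were read in H9, a single line of human embryonic stem cells that was grown as undifferentiated pluripotent cells on Matrigel in mTeSR medium and received no treatment. The assay, ATAC-Me, cuts open chromatin with a transposase and reads the methylation of the released fragments, so depth tells how open a site was and sequence tells how methylated it was. There was 1 group with 2 replicates, and the labels do not tell whether each is a culture of its own; the spread given here may be technical only. Methylation within a population of cells can come from some of the cells or from some of the alleles in every cell, and these cannot be told apart here.

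WNT proteins are secreted, lipid-bearing signals that bind a Frizzled receptor together with an LRP5 or LRP6 co-receptor. Binding stalls the destruction complex, in which AXIN proteins hold beta-catenin for degradation, and the beta-catenin that builds up joins TCF and LEF proteins on DNA to switch on targets such as AXIN2, LGR5 and NKD1. SFRP proteins and FRZB trap the ligands outside the cell, most DKK proteins block the co-receptor, and R-spondins, through LGR receptors, keep Frizzled proteins on the surface. In pluripotent cells the pathway is known for its part in self-renewal and in the first steps towards mesoderm and endoderm. CpG-rich promoters are as a rule free of methylation in healthy cells whether or not the gene is active, and transposase access at a promoter is a separate property.

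The replicates held 29270697 and 52758656 CpG reads on chromosomes 1 to 22 and X. The authors listed 46980 peaks of open chromatin for the group, 46884 of them on the autosomes, where all 48 genes lie. As a check of the label, the starts of NANOG, SOX2 and CRIPTO, which mark pluripotent cells, read at most 2.94% methylated in either replicate and each had a peak. The germ-cell genes DAZL and SYCP3 and the T-cell gene LCK read at least 85.9% in both replicates with no peak. Exceptions were DNMT3B, a pluripotency gene whose most upstream start read 43.9% and 49.7% with a peak, and the germ-cell gene MAEL, at 0.162% and 1.90% with none. The blood gene PTPRC had no read at its start, the germ-cell gene DDX4 had 1 and 14, and no fibroblast gene was analysed here. Start methylation is the methylated share of the CpG reads within 500 bp of the gene's start, given where each replicate held at least 20 such reads, and a start counts as open where a peak has any base within 1000 bp. A share of 0 allows up to 3 counts of its reads, which for the starts, promoters and peaks given below at 0.00% is a level between 0.585% and 2.22%. The members are set beside 15069 other autosomal protein-coding genes with a listed promoter.

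The promoters of the lowest and the highest start, by the mean of the replicates, among the ligands, the antagonists and the receptors with a RefSeq promoter sequence show the range that the measurements cover. Each runs 5′ to 3′ on the strand of its gene, from 250 bases before the start to 50 bases from it onward, and each CpG, the site at which methylation was read, is in capitals. WNT4 lies on the minus strand at chr1:22143048-22143347 and WNT16 on the plus strand at chr7:121328750-121329049.
WNT4: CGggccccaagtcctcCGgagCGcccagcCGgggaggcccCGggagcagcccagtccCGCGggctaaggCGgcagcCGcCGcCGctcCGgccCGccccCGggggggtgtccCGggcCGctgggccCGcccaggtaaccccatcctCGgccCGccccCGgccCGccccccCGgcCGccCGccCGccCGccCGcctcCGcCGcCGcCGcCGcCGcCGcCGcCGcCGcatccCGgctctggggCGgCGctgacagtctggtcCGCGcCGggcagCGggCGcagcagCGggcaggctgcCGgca
WNT16: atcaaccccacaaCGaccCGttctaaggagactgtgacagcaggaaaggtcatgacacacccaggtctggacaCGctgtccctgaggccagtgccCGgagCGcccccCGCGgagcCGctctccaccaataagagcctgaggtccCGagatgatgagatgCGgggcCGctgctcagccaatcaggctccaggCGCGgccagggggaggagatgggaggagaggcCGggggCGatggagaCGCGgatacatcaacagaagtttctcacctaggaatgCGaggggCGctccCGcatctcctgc
WNT4, a ligand of kidney and female reproductive tract development, had 47 CpGs in these 300 bases, and 0.00% of 163 reads and 1.60% of 250 reads on them were methylated. WNT16, a ligand known from bone, had 20 CpGs, with 4.84% of 351 reads and 10.4% of 299 reads methylated. Of this pair, the ligand with fewer CpGs had the higher value in both replicates. DKK1 lies on the plus strand at chr10:52314031-52314330 and SFRP4 on the minus strand at chr7:37916768-37917067.
DKK1: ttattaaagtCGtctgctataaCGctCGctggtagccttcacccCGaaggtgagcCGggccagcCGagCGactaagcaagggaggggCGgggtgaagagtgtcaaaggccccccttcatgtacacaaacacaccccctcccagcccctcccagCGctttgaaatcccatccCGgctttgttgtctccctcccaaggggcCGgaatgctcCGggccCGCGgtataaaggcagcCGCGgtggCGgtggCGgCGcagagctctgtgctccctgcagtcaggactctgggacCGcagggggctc
SFRP4: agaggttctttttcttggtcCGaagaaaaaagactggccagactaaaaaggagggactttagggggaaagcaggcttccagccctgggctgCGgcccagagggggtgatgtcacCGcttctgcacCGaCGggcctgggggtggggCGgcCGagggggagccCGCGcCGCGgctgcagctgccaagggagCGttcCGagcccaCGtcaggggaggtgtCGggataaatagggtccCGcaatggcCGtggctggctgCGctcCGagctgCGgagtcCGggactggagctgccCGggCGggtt
DKK1, a blocker of the LRP5 and LRP6 co-receptors, had 20 CpGs with 0.635% of 315 reads and 0.685% of 292 reads methylated. SFRP4, a ligand trap, had 23 CpGs with 1.27% of 314 reads and 2.83% of 106 reads methylated. FZD8 lies on the minus strand at chr10:35642247-35642546 and FZD9 on the plus strand at chr7:73433528-73433827.
FZD8: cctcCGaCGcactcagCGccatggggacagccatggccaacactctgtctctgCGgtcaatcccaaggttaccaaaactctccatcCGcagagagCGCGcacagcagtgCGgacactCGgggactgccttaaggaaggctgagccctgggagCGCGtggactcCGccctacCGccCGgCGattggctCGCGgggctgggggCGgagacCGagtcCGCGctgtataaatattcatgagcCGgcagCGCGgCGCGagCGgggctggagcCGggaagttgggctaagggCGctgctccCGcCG
FZD9: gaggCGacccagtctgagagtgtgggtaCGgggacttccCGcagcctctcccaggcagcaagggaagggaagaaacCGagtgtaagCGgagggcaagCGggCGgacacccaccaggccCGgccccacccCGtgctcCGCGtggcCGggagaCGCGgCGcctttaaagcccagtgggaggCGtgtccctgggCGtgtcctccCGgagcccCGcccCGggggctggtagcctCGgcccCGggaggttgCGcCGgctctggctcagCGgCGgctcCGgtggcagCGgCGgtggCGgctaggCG
Both receptors had 31 CpGs here. FZD8 read 0.702% of 570 reads and 0.573% of 872 reads methylated, and FZD9 read 0.00% of 307 reads and 0.771% of 389 reads. In these 300 bases FZD9 was lower than FZD8 in replicate 1 and higher in replicate 2, and its higher value within 500 bp, given further on, came from reads outside them. The median number of CpGs per 300-base promoter was 32 over 16 ligands, 20 over 5 antagonists and 31 over 5 receptors, against 22 over all 15101 promoters of the table.

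The starts of the WNT pathway genes had little methylation wherever enough reads covered them. All 42 members with enough reads were under 20% in both replicates, and 0 were over 80%. Over all protein-coding genes 91.4% of 11469 starts were under 20% and 2.55% were over 80%, so the count for the members lies close to the background. The count for the members depended on the read minimum. It was 42 of 43 with at least 10 reads in each replicate, and 43 of 45 with replicate 2 alone. The median member start read 1.0% in replicate 1 and 2.14% in replicate 2 (mean 1.57% ± 0.805, SD, n = 2). That of all other genes read 0.672% and 1.65% (mean 1.16% ± 0.690, SD, n = 2). Members minus other genes came to 0.41 ± 0.11 points (SD, n = 2), but to −0.32 points with windows of 1000 bp either side. With 2 replicates the exact sign-flip permutation test has a smallest two-sided p of 0.5, and differences between groups of genes are therefore given without one.

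**Figure D1:**
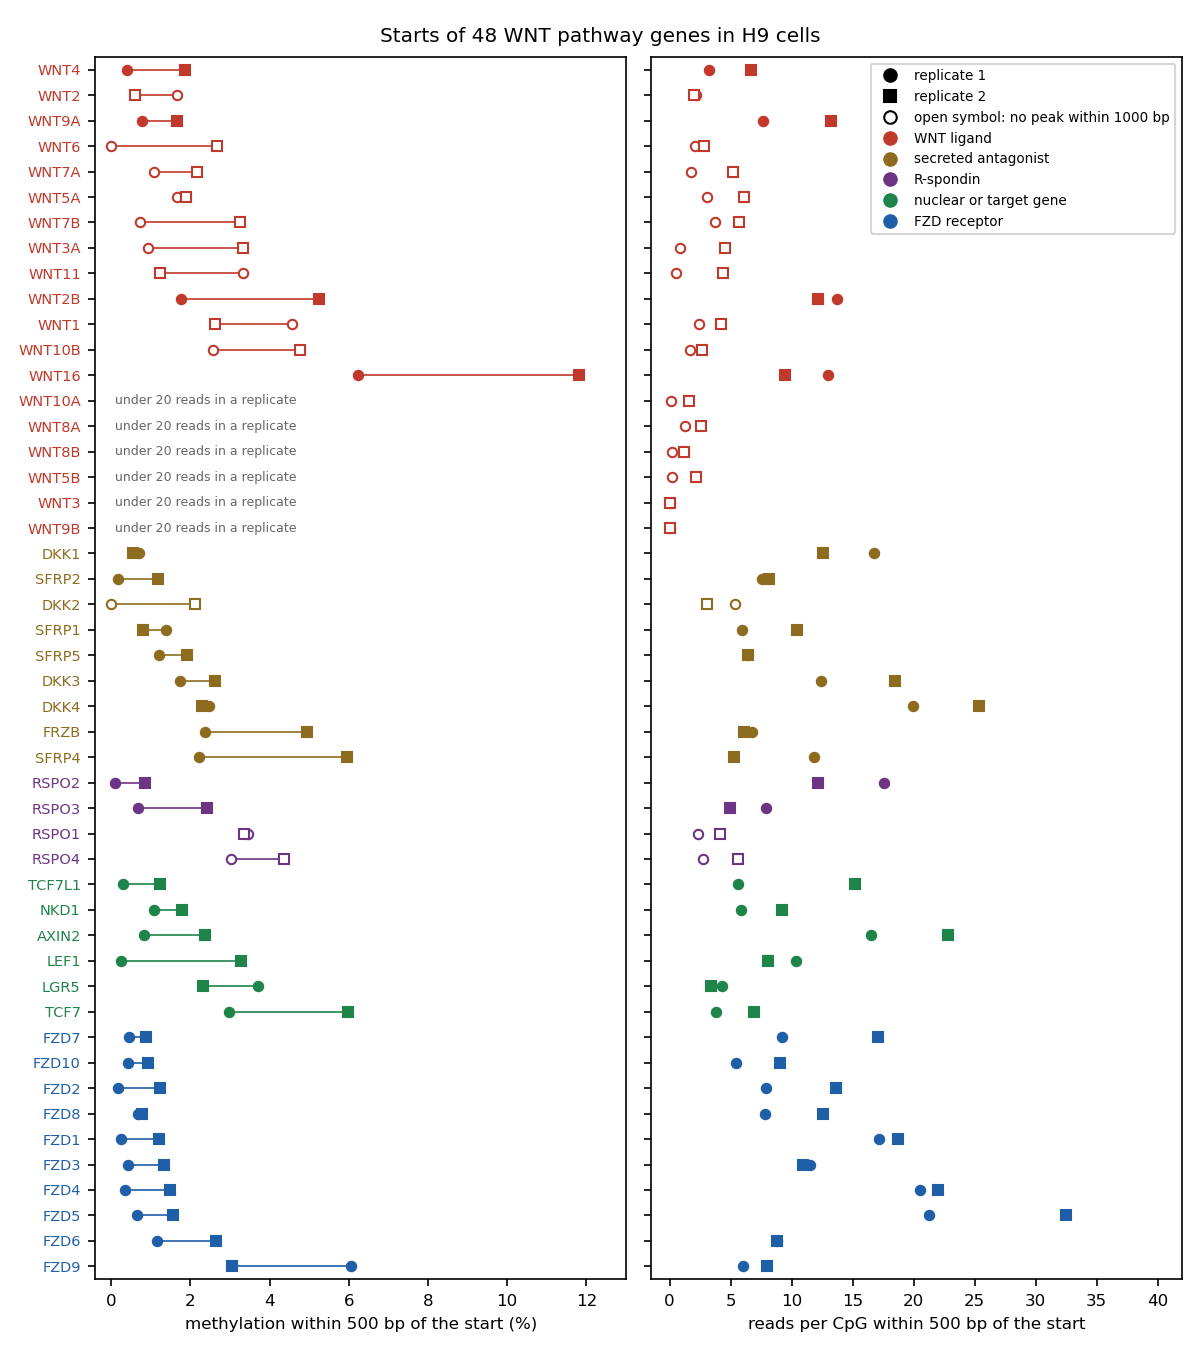
Start methylation (left, % of CpG reads within 500 bp of the start) and reads per CpG in the same window (right) for all 48 members, circles for replicate 1 and squares for replicate 2, coloured by role. All measured starts lie under 12%, most ligands have open symbols (no peak) and few reads per CpG, and all FZD receptors have filled ones.

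The WNT ligands had a median start methylation of 1.66% and 2.63%, a mean of 2.15% ± 0.687 (SD, n = 2). The FZD receptors had 0.436% and 1.29%, a mean of 0.862% ± 0.603 (SD, n = 2). The ligands were higher by 1.22 and 1.34 points in the replicates, 1.28 ± 0.08 points (SD, n = 2). That SD is the spread between the replicates and does not measure the spread among genes. By the mean of the replicates, single starts ran from 1.13% to 9.02% in the ligands and from 0.664% to 4.54% in the receptors, so they overlapped. The gap was 0.35 points with windows of 250 bp either side. Against the same receptors, the antagonists were higher by 0.90 ± 0.08 points, the R-spondins by 1.5 ± 0.13 points and the nuclear or target genes by 0.78 ± 0.38 points (SD, n = 2 each). With the narrower window the antagonist gap was 0.16 points and the R-spondin gap 0.51 ± 0.83 points (SD, n = 2), less than its spread. With each CpG weighted equally the antagonist gap was 2.12 points. The nuclear or target gene gap was 2.77 points with equal weights, 1.21 and 1.45 points with 250 and 1000 bp either side, and 0.513 points in replicate 1 alone. Among members with a RefSeq promoter sequence only, that gap was 0.713 ± 1.51 points (SD, n = 2), less than its spread.

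Few ligand starts were open, while every receptor start was. A peak lay at the start of 30 of the 48 members, against 64.5% of 15117 protein-coding genes. Only 4 of the 19 ligands had one, WNT2B, WNT4, WNT9A and WNT16, against 10 of 10 FZD receptors. The antagonists had one at 8 of 9 starts (DKK2 lacked it), the R-spondins at 2 of 4 (RSPO1 and RSPO4 lacked it) and the nuclear or target genes at 6 of 6. Over starts with at least 20 reads in each replicate, the counts were 4 of 13 ligands and 10 of 10 receptors, and 84.2% over all genes. With at least 70 CpGs in the window, 2 of 10 ligands and 9 of 9 receptors were open, against 87.2% of 6516 genes. Within 2000 bp of the start 8 of the 19 ligands had a peak, against 66.9% of all genes.

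**Figure D2:**
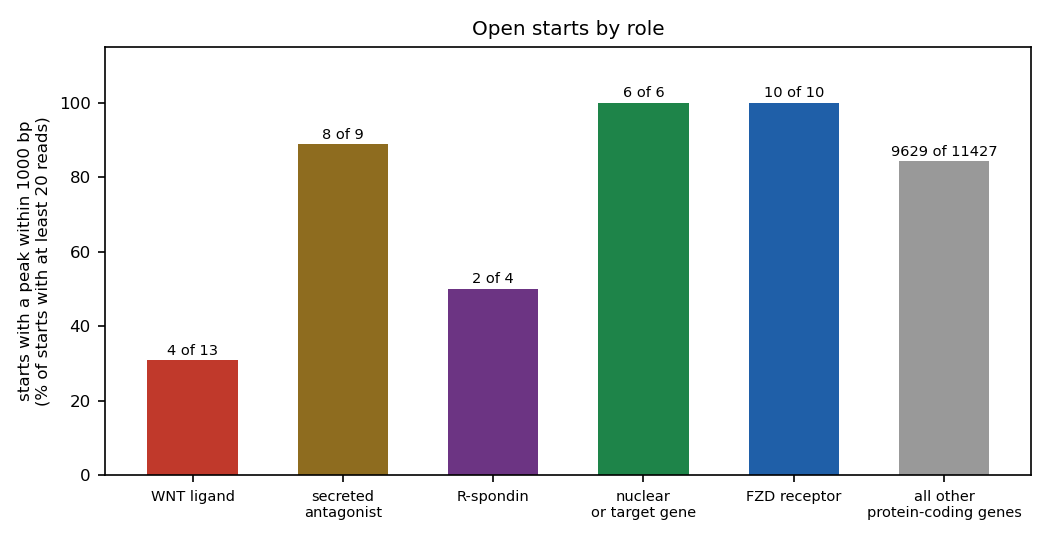
Share of starts with a peak within 1000 bp, in % of the starts that both replicates covered with 20 CpG reads or more, by role; the number above each bar gives open and measured starts. The ligands stand at 4 of 13, below the R-spondins at 2 of 4, while the antagonists, nuclear or target genes and FZD receptors reach 8 of 9, 6 of 6 and 10 of 10.

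Unmethylated starts without a peak made up 12 of the 42 measured members, against 10.7% of 10488 unmethylated starts over all genes, and 9 of the 12 were ligands. WNT1, which patterns the midbrain, read 4.57% of 219 reads and 2.63% of 380 reads methylated. WNT3A, which is needed for mesoderm in the mouse, read 0.935% of 107 reads and 3.33% of 570 reads. WNT5A, a ligand of the beta-catenin-independent branch, read 1.66% of 241 reads and 1.88% of 479 reads. These 3 windows held 90, 126 and 79 CpGs. WNT2 read 1.67% and 0.606%, WNT6 read 0.00% and 2.67%, and WNT7A read 1.08% and 2.16%. WNT7B read 0.733% and 3.24%, WNT10B read 2.56% and 4.76%, and WNT11 read 3.33% and 1.22%. All 9 were under 5% in both replicates. The other 3 were the antagonist DKK2 at 0.00% and 2.13%, and the R-spondins RSPO1 at 3.45% and 3.36% and RSPO4 at 3.02% and 4.36%. Peaks are called from read depth, and these 9 ligands had 0.541 to 3.75 reads per CpG in replicate 1 and 1.99 to 6.06 in replicate 2. The receptors, all with a peak, had 5.41 to 21.3 and 7.99 to 32.5 reads per CpG. The 9 ligands were picked for lacking a peak, so their lower depth partly follows from that choice. The 4 open ligands had 3.25 to 13.7 and 6.65 to 13.2 reads per CpG, which reach into the ranges of the receptors. The open ligand WNT4 had 3.25 and 6.65 reads per CpG, inside the range of the 9 in replicate 1 and above it in replicate 2.

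The 4 open ligands differed among themselves. WNT9A, a ligand of joint development, had the strongest start peak among them, with the peak caller's signal (the authors' own value) at 1172, and read 0.785% and 1.66% methylated. WNT2B had a signal of 1083 and read 1.77% and 5.25%, and WNT4 had a signal of 519 and read 0.402% and 1.87%. WNT16 had a signal of 804 and, at 6.24% and 11.8%, the highest start methylation of the 42. Its promoter was bounded sharply upstream: 66.7% of 9 reads and 80.0% of 10 reads were methylated 251 to 500 bp before the start, against 4.32% of 301 reads and 11% of 273 reads in the 250 bp before it. From 500 to 750 bp inside the gene it read 0.629% and 1.61%, below the values on either side of the start.

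Start methylation could not be given for 6 ligands. WNT5B had 3 and 32 reads at its most upstream start, WNT8A had 11 and 23, WNT8B had 1 and 7, and WNT10A had 8 and 112. Of these reads, 3 of 3 and 87.5% were methylated in WNT5B, 45.5% and 34.8% in WNT8A, 57.1% in replicate 2 in WNT8B and 12.5% and 3.57% in WNT10A. The first 3 were the members at 20% or more in either replicate, all on few reads. WNT3 and WNT9B, neighbours that face away from each other on chromosome 17, had no read in either replicate at 77 and 110 CpGs. They lay in a stretch of 700000 bp, chr17:46200001-46900000, in which 87 of 9327 CpGs (0.933%) were covered in either replicate, against 65.9% of the CpGs of the chromosome. It held 0 peaks and 6 protein-coding genes, the members WNT3 and WNT9B among them. What left this stretch unread was not tested, so the lack of a peak at WNT3 and WNT9B is no measurement of their access.

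The FZD receptors, which span the cell membrane and bind WNT proteins outside it, were all open. FZD5 had the strongest start peak, with a signal of 3181 and 0.652% and 1.55% methylation. FZD4 followed with 2497, and FZD1 with 2228. The weakest was FZD10 at 362, with 0.420% and 0.922% methylation. FZD2, FZD3, FZD7 and FZD8 read between 0.165% and 1.34% in both replicates, and FZD6, a receptor of planar cell polarity, read 1.15% and 2.64%. FZD9 was the exception to the low values, with 6.05% of 645 reads and 3.04% of 855 reads methylated. In its first 250 bases 0.00% of 135 reads and 1.31% of 382 reads were methylated; from 250 to 500 bp inside the gene 14.7% of 232 reads and 11.6% of 164 reads were, and from 500 to 750 bp 80.2% of 86 reads and 84.7% of 98 reads. The unmethylated stretch of FZD9 ended inside the gene.

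The antagonists were open at all starts but that of DKK2. By the mean of the replicates DKK1 read lowest, at 0.708% of 989 reads and 0.539% of 742 reads, with a peak signal of 1585. SFRP4 read highest by the same mean, at 2.21% of 861 reads and 5.94% of 387 reads, with a signal of 383. SFRP2 had the largest signal of the role, 2750, at a peak whose summit lay 1243 bp upstream of the start. DKK4 had a signal of 2367 at a peak with its summit 330 bp upstream, and its methylation stepped up at the start: 3.33% of 210 reads and 2.99% of 167 reads were methylated in the 250 bp before it, and 57.1% of 28 reads and 70% of 20 reads in the 250 bp after it. SFRP1, SFRP5, FRZB and DKK3 read between 0.792% and 4.95% in both replicates, with signals from 324 to 1056. The start of DKK2 had no peak, but one lay 2150 bp inside the gene at 2.38% and 1.78% methylation.

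Lowest and highest here go by the mean of the replicates, and the order could differ within one of them. Among the R-spondins, RSPO2 had the lowest start of all 42 members, 0.085% of 1177 reads and 0.859% of 815 reads, with a peak signal of 2248. RSPO3 read 0.676% and 2.41% with a signal of 301, and RSPO4, at 3.02% and 4.36%, was the highest of the role. Of the nuclear genes, TCF7L1, a repressor that is the main TCF of embryonic stem cells in the mouse, read lowest at 0.295% of 679 reads and 1.24% of 1857 reads. TCF7 read highest at 2.98% of 302 reads and 5.97% of 553 reads, and LEF1 read 0.253% and 3.27%. The targets AXIN2, a negative feedback scaffold, at 0.823% and 2.38%, NKD1, a feedback inhibitor, at 1.08% and 1.79%, and LGR5, an R-spondin receptor, at 3.70% and 2.31%, all had start peaks. Their signals were 1536 for AXIN2, 438 for NKD1 and 315 for LGR5. Over all open starts the median signal was 1070 for the members and 1323 for the other genes.

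The stretch with under 50% methylation reached well beyond the start at many members. Its length was measured in steps of 500 bp outward from the start until a step read 50% or more over both replicates together. It reached 5000 bp or more at 11 of the 48 members, against 2.57% of 15117 genes, and its median was 3000 bp for the members and 1500 bp for the other genes. In each replicate alone 8 members reached that length, against 1.93% of genes in replicate 1 and 2.31% in replicate 2, and WNT1 and FZD1 reached it in neither. WNT5A had the longest, 9500 bp, followed by FZD8 with 8000 bp, and WNT10B and WNT11 with 6500 bp each. FZD7 and SFRP1 had 6000 bp, WNT3A and WNT7B had 5500 bp, and WNT1, FZD1 and FZD10 had 5000 bp. So 6 ligands and 4 receptors had such stretches over both replicates together, although none of the 6 ligands had a peak at its start and all 4 receptors had one. At the other end, FZD9 had 1000 bp and RSPO4 1000 bp, WNT2B had 500 bp, and 4 ligands with few or no reads had none.

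**Figure D3:**
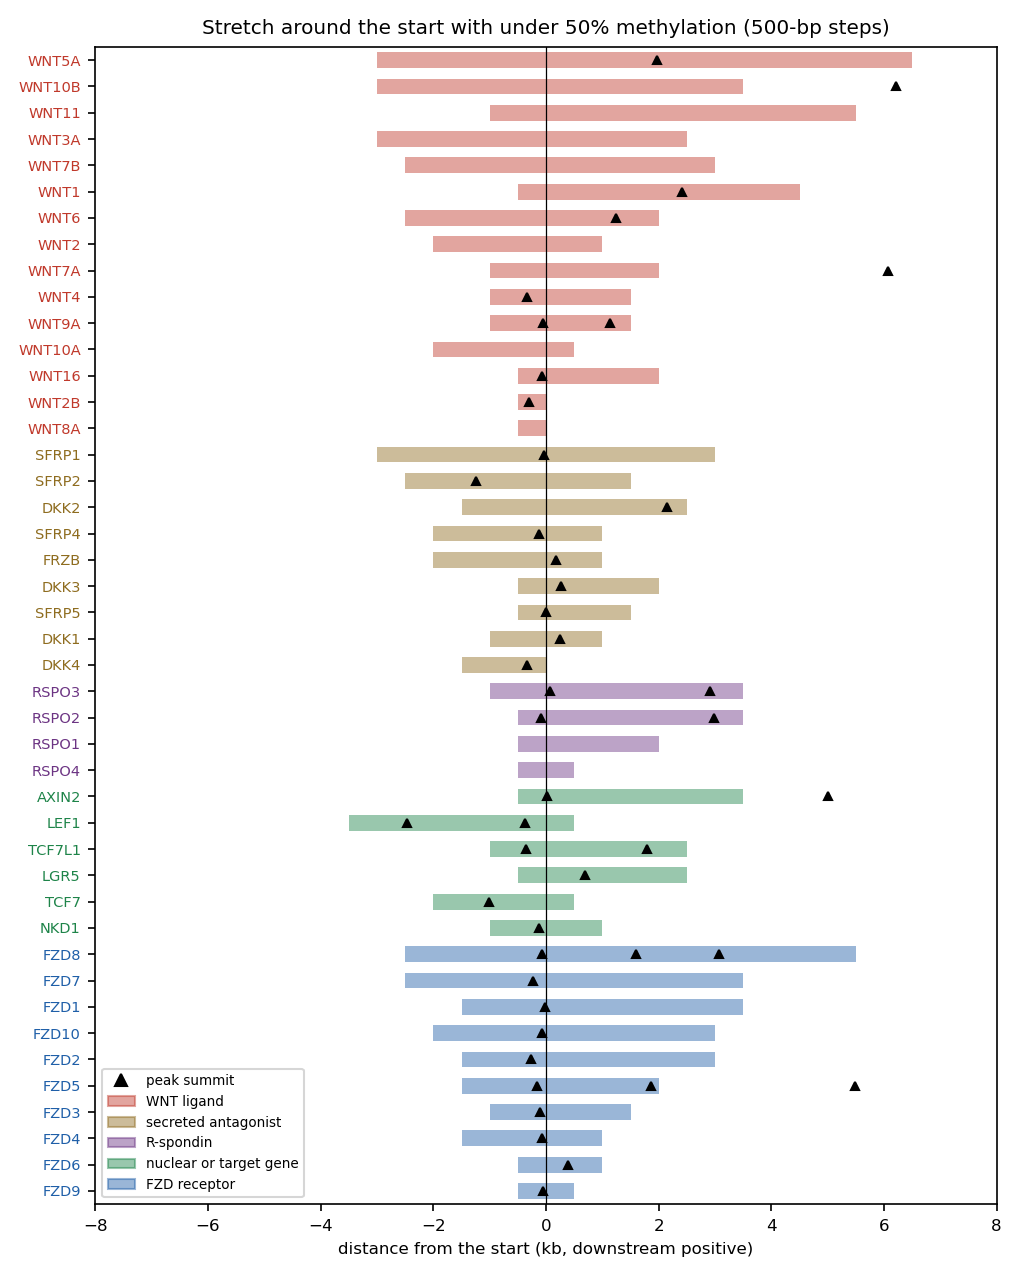
Extent of the stretch around each start with under 50% methylation (bars, kb from the start, steps of 0.5 kb) and summits of the strongest start peak and of peaks inside the gene (triangles) for the 44 members with such a stretch, by role. WNT5A spans 9.5 kb and FZD8 8 kb, and the bars of WNT11, WNT3A and WNT7B hold none of these summits. Peaks outside the gene and further than 1000 bp from the start were not drawn.

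Around the starts the ligands had fewer reads per CpG than the receptors, and the order of their methylation differed between the replicates. In the 500 bp before the start, the mean over genes was 3.76% and 11.2% for ligands and 4.38% and 5.68% for receptors, and 10.6% and 16.8% for all other genes. The same bins held 3.51 and 5.18 reads per CpG at ligands, 19 and 23.9 at receptors, and 13.6 and 18.9 at the other genes. Between 2500 and 3000 bp downstream, methylation had come to 44.8% and 44.1% for ligands, 16.5% and 26.3% for receptors and 69.1% and 79.1% for the others. The bins away from the start rest on few genes per role, 7 to 11 here.

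**Figure D4:**
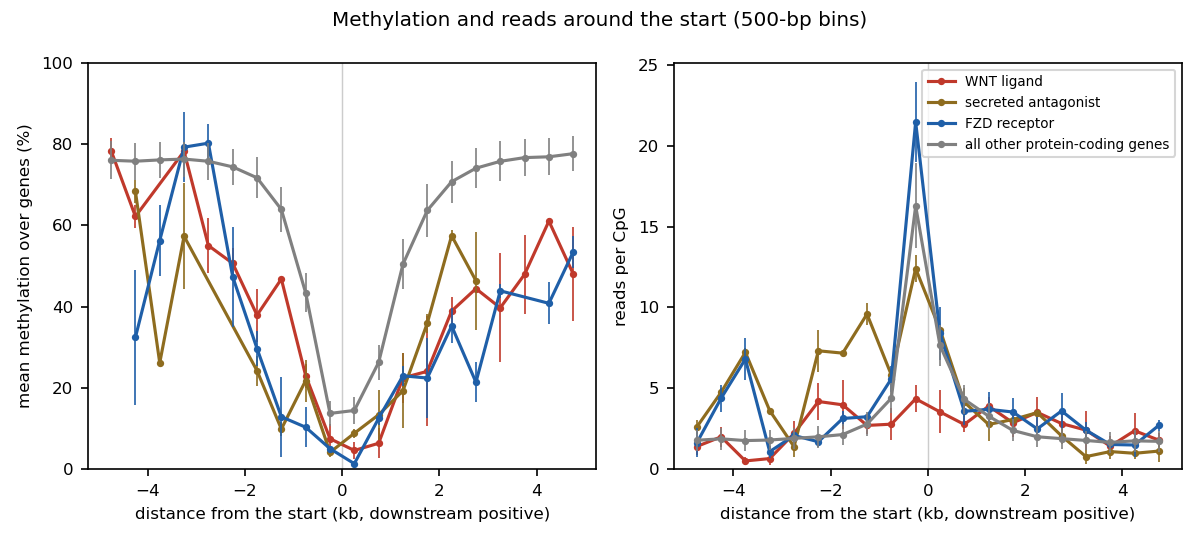
Mean methylation over genes (left, %, bins with at least 3 genes in each replicate) and reads per CpG (right) in 500-bp bins from 5 kb before to 5 kb after the start; lines join the means of 2 replicates and vertical lines span the replicates. In the 500 bp before the start, receptors held 19 and 23.9 reads per CpG and the other genes 13.6 and 18.9. The ligands held fewer there.

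Over whole genes the members were more methylated than at their starts. The median member gene read 17.3% and 26.0%, a mean of 21.7% ± 6.19 (SD, n = 2) over 46 genes, and the other genes read 30.4% and 45.3%, a mean of 37.9% ± 10.5 (SD, n = 2). The start was below the gene in both replicates at 41 of 42 members, against 92.6% of 11440 genes, and the median difference was −18.4 ± 5.49 points (SD, n = 2). The exception was WNT1, whose gene read 3.6% and 3.59%, above its start in replicate 2 and below it in replicate 1. Counts of reads favour open sites: without 2000 bp either side of the start the median member gene read 65.4%, and with each CpG weighted equally 42.5%.

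Most receptors and some ligands had low methylation over the whole gene. Whole genes were under 20% in both replicates at 16 of 46 members, against 17.9% of 13688 genes, and at 8 of 10 receptors; FZD3, at 23.9% and 42%, and FZD9 were the other two. FZD8 read 0.702% and 1.62% over its gene, FZD7 1.85% and 1.83%, and FZD10 4.48% and 2.30%. FZD genes are short, with a median length of 5740.5 bp against 25894 bp for the other genes; of those with at most 10000 bp, 7 of 8 were under 20%, against 45.2% of 2919 genes of that length. Ligand genes spread widely, from WNT1 at 3.6% and WNT5A at 5.65% and 11.5% to WNT2 at 58.2% and 76.3% and WNT8A at 82.5% and 82.4%. Over 50% in both replicates were WNT2, WNT8A, DKK4, RSPO4 and NKD1, that is 5 of 46 members, against 26.4% of all genes. These whole-gene counts include the reads near the start, and members and other genes were not compared without those reads. DKK4 had the widest gap among the antagonists, with 2.46% and 2.29% at the start against 68.3% and 70.6% over the gene.

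**Figure D5:**
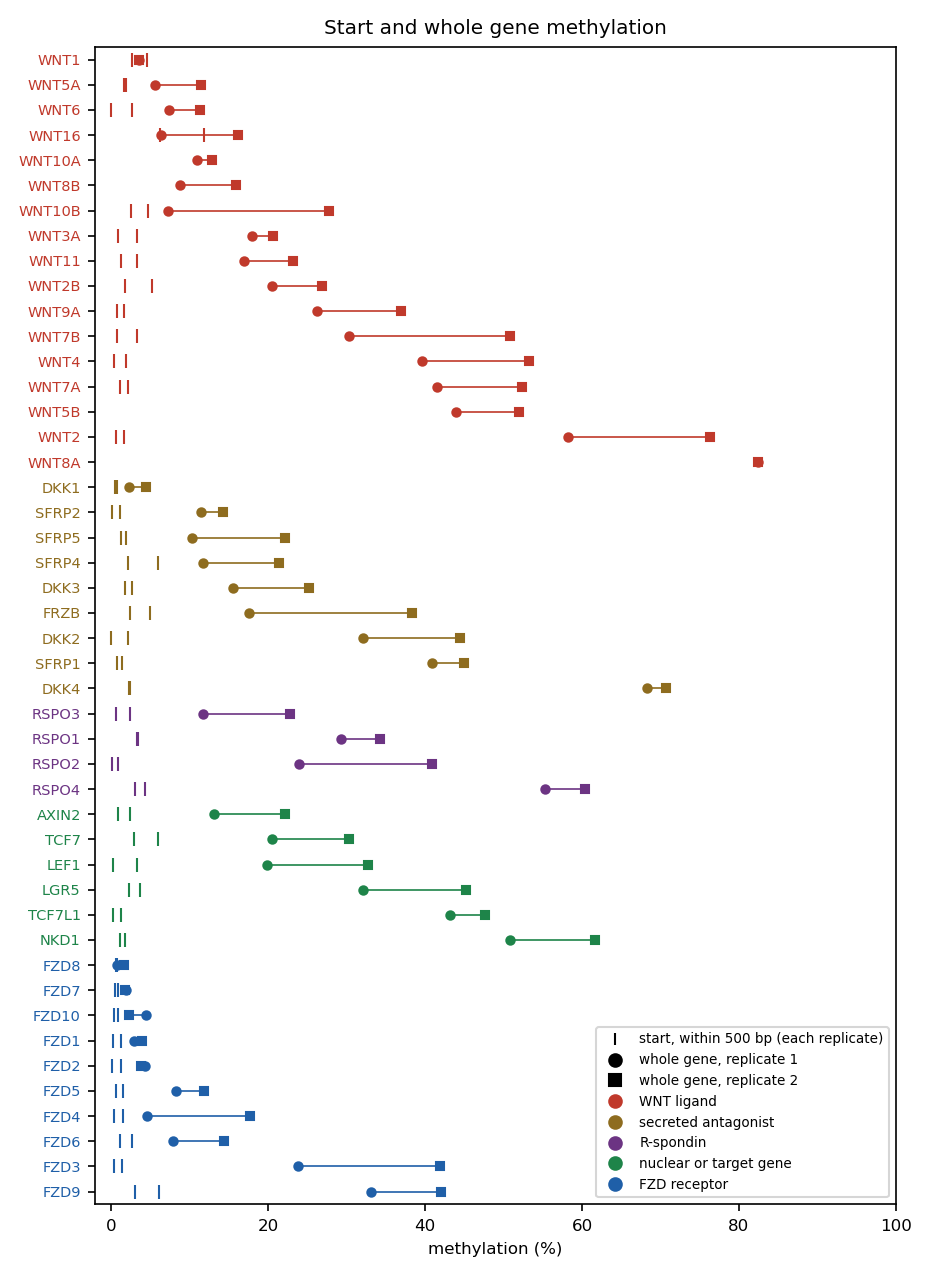
Methylation within 500 bp of the start (ticks, both replicates) and over the whole gene (circle, replicate 1; square, replicate 2) in % for the 46 members with enough reads, by role. FZD8, FZD7, FZD10, FZD1 and FZD2 lie under 5% over the whole gene, as does WNT1, and WNT8A lies at 82.5% and 82.4%.

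Peaks inside the genes, further than 1000 bp from the start, showed where ligand loci were open. There were 47 such peaks in 26 of 48 members, against 38.9% of genes with one or more; 14 of 19 ligands had one, among them 11 of the 15 without a start peak. WNT3A held the strongest peak of any member, chr1:228059358-228060782, with a signal of 4865 and 68 CpGs. It lay 52704 bp downstream of the start and 1569 bp before the far end of the gene, and 1.11% of 995 reads and 1.24% of 2091 reads on it were methylated. The start of the same gene had no peak. WNT8B, whose start had 8 reads in all, likewise had its peaks near the far end, 18678 and 19715 bp from the start and 2057 and 1020 bp before the end. The first of them had a signal of 1199 with 1.34% and 0.741% methylation. WNT6 had a peak 1239 bp inside the gene with a signal of 1137 and 0.00% and 0.313% methylation, WNT1 one at 2416 bp with 0.971% and 1.55%, and WNT5A one at 1970 bp with 0.00% and 2.27%. These 3 ligands had no peak at the start but an unmethylated one within 2500 bp of it.

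TCF7L1 had the most inner peaks, 7, and LEF1 followed with 4, of which one lay upstream of the start used. The strongest of TCF7L1, chr2:85255497-85256614, lay 122686 bp from the start with a signal of 2684, above the 1085 of its start peak, and read 1.76% and 3.16% methylated. The strongest of LEF1, chr4:108135419-108135856, lay 30639 bp inside the gene with a signal of 1474 and read 4.03% and 3.0%. FZD8 held peaks 1594 and 3074 bp from its start, both under 1.5% in each replicate. Of the 40 inner peaks with at least 10 reads in each replicate, 26 (65.0%) were under 20% in both, 14 lay between the limits or differed between replicates and 0 were over 80%. Over inner peaks of all genes the shares were 60.4%, 39.1% and 0.460%. The partly methylated ones were found in all roles; the peak 57730 bp inside DKK2 read 60.5% and 49.3%, and that 42672 bp inside DKK3 read 50% and 60.9%.

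Of the 32 members in the RefSeq promoter table, 4 had a second listed start, and these differed from the first in 2 genes. At TCF7 the upstream start was unmethylated and open, while the downstream start, at position 134123618 of chromosome 5, had 13 of 13 reads and 93.3% of 30 reads methylated and no peak. WNT5B showed the reverse order: its downstream start read 5.26% of 76 reads and 9.52% of 84 reads, against 87.5% of 32 reads in replicate 2 at the upstream one, and neither had a peak. WNT2B was unmethylated at both, with 0.522% and 1.23% and a weak peak of signal 209 at the downstream start. WNT5A was unmethylated at both without a peak, with 2.70% and 1.25% at the downstream start.

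Several ligand genes are neighbours, and 3 of the 4 intervals between their starts could be read; that of WNT3 and WNT9B had no reads. WNT10B and WNT1 point away from each other with 6587 bp between their starts, and that interval read 13.4% and 19.2% methylated with 1 peak. WNT6 and WNT10A, 21047 bp apart in the same direction, had 9.34% and 12.0% between their starts and 1 peak, the one inside WNT6. WNT9A and WNT3A, 59066 bp apart and pointing away from each other, had 21.6% and 32.0% and 4 peaks, and differed in that WNT9A was open at its start and WNT3A was not.

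Short sequence motifs were looked up in the 300-base promoters on both strands. The TCF and LEF site CTTTGAA or CTTTGAT was found in 1 of 32 members, DKK1, where it stands in the sequence above, and in 5.42% of 15101 promoters. The GC box GGGCGG was found in 27 of 32 members and in 58.7% of promoters, and in 5 of 5 receptors. TATAAA was found in FZD8, DKK1 and TCF7, 3 of 32 members against 9.83% of promoters, and CCAAT in 13 of 32 against 36.1%. These matches describe the letters of the window only.

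Replicate 2 read higher than replicate 1 at 33 of 42 member starts, against 84.9% of all starts. With Fisher's exact test (two-sided, Benjamini-Hochberg adjusted over all 11469 starts at 0.05), 11 member starts were higher in replicate 2, against 28.4% of all, and 1 was lower, FZD9, against 1.16%. The lowest adjusted p of this exact test was 0.00119, at FZD4, which read 1.48% in replicate 2 and 0.338% in replicate 1. With 250 bp either side 5 of 42 member starts differed by the same exact test, against 19.7% of 11029 starts. Reads that span several CpGs count at each of them, so these p-values are too small. On the deepest CpG of each window alone, 0 of 42 differed by Fisher's exact test, adjusted or not, against 0.253% of all starts before adjustment. The members had medians of 19 and 17 reads there. So few reads at such low methylation could hardly reach the threshold, so this count does not show that the replicates were alike.

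Genes that carry, relay or answer the signal, from a list that holds no member, were mostly unmethylated and open at the starts that enough reads covered. Of 58 listed genes 47 had a listed promoter and 44 enough reads, and 43 of the 44 were under 20% in both replicates, beside the 91.4% over all genes. The exception was CSNK1E, a casein kinase of the relay, at 26.7% and 21.1% with no peak. A start peak was present in 39 of 47, beside the 64.5% over all genes. Over starts with enough reads it was 39 of 44 (88.6%), near the 84.2% over all genes. The 8 without a peak were LRP5, TRABD2A, TLE2, SP5, CSNK1E, NKD2, SOST and TNFRSF19. LRP5, the co-receptor, read 0.685% and 3.61%, TRABD2A, a protease that cuts WNT proteins, read 0.00% and 1.73%, TLE2, a co-repressor, read 0.935% and 4.70%, and SP5, a target, read 1.18% and 1.92%. NKD2 had no reads, and SOST and TNFRSF19 had too few: 7 of 7 reads and 83.7% of 98 reads were methylated at SOST, and 0 of 2 reads and 38.9% of 18 reads at TNFRSF19. By the mean of the replicates, the ends of each role were as follows. Among 7 co-receptors and other receptors, ROR1 was lowest at 0.155% and 1.25% and LGR6 highest at 8.79% and 6.43%. Among 13 relay and destruction complex genes FRAT1 was lowest at 0.00% and 1.04%, and beta-catenin itself, CTNNB1, read 0.182% and 1.03%. Among 9 nuclear genes TLE3 was lowest at 0.185% and 0.212% and PYGO1 highest at 4.76% and 8.26%. Among 6 planar polarity genes VANGL2 was lowest at 0.185% and 0.877% and PRICKLE2 highest at 3.85% and 8.46%. TRABD2B, at 0.576% and 0.895%, and DKKL1, at 2.41% and 2.84%, were the ends among 5 measured inhibitors. WLS, which carries WNT proteins to the cell surface, read 0.278% and 1.32%, RNF43, which removes Frizzled from it, read 0.00% and 4.88%, and the target TBXT read 0.948% and 1.02%, all with a peak.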

How the data were processed

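ATAC-Me was read in 2 replicates of H9 cells. The submitters' processing notes name Trim Galore, Genrich and the build hg38 (GRCh38); mapper, methylation caller and handling of duplicates: not given in the sources used here. The authors deposited, per replicate, a methylation fraction (0 to 1) and a count of reads for each of 29175448 CpGs, of which 31.2% and 58.3% were covered. A single peak list covers both replicates; the authors gave each peak a signal and the −log10 of its q-value. Whether Genrich combined the replicates is not stated.

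From these, methylated reads were computed as fraction times reads (100% whole within 0.001), summed over the CpGs of a region and divided by its reads. A read over several CpGs counts at each, so fragments are fewer than reads and intervals or floors would cover counting error only. Failed conversion of a cytosine counts as methylation, which matters most at low values. Starts are the most upstream in the RefSeq promoter table (assembly GRCh38.p14) for 32 members. For the 16 others the outer end of the gene on its known strand was used, which may belong to a predicted transcript. No chromosome 8 gene is in that table, so FZD3, FZD6, SFRP1, DKK4 and RSPO2 were set by strand and the background holds no gene of that chromosome. The gene named is the whole RefSeq interval between its ends. Stretches under 50% were measured in 500-bp steps up to 20000 bp each side; a step with under 10 reads was passed over and 2 in a row ended it, a rule chosen after seeing the data.

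Values are given per replicate with the mean and SD. Replicates were compared at each start by Fisher's exact test (SciPy 1.17.1, Python 3.11.15, pandas 2.3.3, NumPy 2.4.6), which was tested on simulated data. The simulated reads were independent, so that check does not cover reads that count at several CpGs. Its planted changes were larger than most differences between the replicates at member starts. Alternatives covered read minimums, windows, weighting, starts, peak distance, peak significance and each replicate left out. Any member could be named, with full values for the lowest and highest start of each role and every start without a peak; of other pathway genes, those at 20% or more, without a peak, or lowest and highest of their role. Members, gene lists and tests were chosen with earlier results of these data known.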

Additional observations from a re-analysis of the deposited data

How the results depend on the processing

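The mean over the replicates of each difference between roles kept its sign under every alternative run. The same holds for start minus gene. The exception was members minus other genes with 1000 bp either side. Within single replicates the sign of a difference between roles was not always kept. Values that moved are given here, and the cause was not tested unless the alternative's own construction shows it. No paired analysis was possible because there is 1 group. The median member start ranged from 1.0% to 2.29% with either replicate left out, and the count under 20% was 26 of 26 with members of the promoter table only, which are fewer. That count was 42 of 43 with at least 10 reads, 43 of 45 with replicate 2 alone and 40 of 41 at the CpG-richer gene end. Ligands minus receptors was 0.354 points with 250 bp either side, 1.60 with 1000 bp, 0.968 without CpGs listed as altered, 0.814 with promoter-table members, 1.02 at the most downstream start, and 1.22 to 1.67 with a replicate left out. Antagonists minus receptors was 0.160 with 250 bp, 1.07 with 1000 bp, 2.12 with each CpG weighted equally, 0.494 with promoter-table members, and 0.839 to 0.957 with a replicate left out. Nuclear or target genes minus receptors was 1.21, 1.45 and 2.77 under the first 3 of these, and 0.513 to 1.05 with a replicate left out. With promoter-table members that gap was 0.713 ± 1.51 points (SD, n = 2), less than its spread, and its sign differed between the replicates. R-spondins minus receptors was 0.506 with 250 bp, 2.11 with 1000 bp, 2.12 with promoter-table members, and 1.41 to 1.60 with a replicate left out. Members minus other genes was 0.246 with 250 bp, −0.322 with 1000 bp, 0.167 with equal weights, 0.286 at the most downstream start, and 0.325 to 0.530 with a replicate left out. Whole genes read 65.4% without 2000 bp either side of the start, 41.3% without CpGs in peaks, 42.5% with equal weights, and 17.3% to 26.0% with a replicate left out; start minus gene was then −64.5, −36.0, −38.0, and −22.0 to −14.6 points. Start peaks numbered 18 of 32 promoter-table members; ligands with one numbered 8 within 2000 bp and 2 of 10 with at least 70 CpGs. Starts that differed between replicates numbered 5 of 42 with 250 bp, against 19.7% of all. They numbered 0 on the deepest CpG, where the reads were too few to show small differences. The peak list could not be split by replicate. Ligand starts had few reads, which widens the counting error of their methylation values; the part of depth in their peak calls was not tested. Alternatives on promoter-table members, starts, altered CpGs, gene length and ligand peaks, and those on the R-spondins and the stretches, were chosen after seeing the data.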
